A study of Mus musculus with 30 samples.

Results

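A set of 10 transcripts that Wnt signalling is known to switch on, or that carry its signal in the nucleus, was followed here through a time course of slowed protein synthesis: Axin2, Sp5, Nkd1, Lef1, Tcf7, Tcf7l1, Tcf7l2, Znrf3, Rnf43 and Notum. They were chosen by name, as the identifiers of the count matrix that map to these symbols, and 10 of the 57186 identifiers in the matrix did. RNA was sequenced from NIH/3T3 cells, a mouse fibroblast line grown in serum, and from CGR8 cells, a mouse embryonic stem cell line grown in serum-free N2B27 medium with 2i and LIF. Both lines carried a knock-in at the ROSA26 locus that the labels call SLT, the controls included. Cycloheximide, a drug that blocks elongation by ribosomes, was given at 0.1 µg/mL for 0, 1, 2, 5 or 48 h, with 3 replicate libraries per line and time, 30 in all. The 0 h libraries are the only controls, so at 48 h cycloheximide and time in culture cannot be told apart, and the labels do not say whether replicates A, B and C are separate cultures, so p-values measure the spread between these libraries.

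In the absence of a Wnt ligand, a destruction complex of Axin, APC and GSK3 marks β-catenin for degradation, and TCF/LEF proteins hold target genes low together with corepressors. When the ligand binds its Frizzled and LRP receptors, β-catenin accumulates, joins TCF/LEF on DNA and raises its targets, several of which then damp the pathway. The 2i mixture in the medium of the CGR8 cells contains an inhibitor of GSK3, and the NIH/3T3 medium has no such agent in the labels. The amount of β-catenin and the activity of the pathway were not measured in either line.

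Library totals ran from 18.2 to 30.5 M counts. Levels are counts-per-million (CPM) values, relative to the library total scaled by the trimmed-mean factor of each line's fit. The 6 stem cell markers were each at 375 CPM or more in every CGR8 library and at 0.383 CPM or less in every NIH/3T3 library. Col1a1, a fibroblast collagen, lay between 1600 and 4760 CPM in NIH/3T3 and at 0.726 CPM or less in CGR8. Of the other fibroblast markers, Col1a2, Col3a1 and Lox were at 218 CPM or more in NIH/3T3, but Postn was at 0.959 CPM or less. Thy1 went the other way, at 0.0929 CPM or less in NIH/3T3 and between 1.48 and 4.51 CPM in CGR8. A gene is called higher or lower below where edgeR's quasi-likelihood test gave a Benjamini-Hochberg adjusted p under 0.05 over all tested genes.

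Before treatment, Axin2, Sp5, Nkd1 and Notum were higher in the stem cells and near or at 0 in the fibroblasts. The test at 0 h was limited to genes that passed the count filter in each line, a restriction chosen after seeing the data. That left 5 of the 10 genes, and of these Axin2 and Tcf7l1 were called higher in CGR8, Tcf7l2 and Znrf3 lower, and Lef1 neither. Among all genes tested in both lines, 35.1% were called higher and 39.7% lower. Sp5, Nkd1, Notum, Rnf43 and Tcf7 passed the count filter in CGR8 but not in NIH/3T3, so their levels are described with no test. The line and its medium cannot be told apart in this comparison. As in every comparison of bulk RNA, fewer cells with a transcript and less of it per cell cannot be told apart either. Axin2, a scaffold of the destruction complex and the classic feedback target, was at 82.0, 78.3 and 80.8 CPM in the CGR8 libraries and at 1.09, 0.811 and 1.12 CPM in the NIH/3T3 libraries. The log2 difference of Axin2 was 6.26 (SE 0.23, edgeR adjusted p = 8.7e-20), 76.7-fold. Sp5, a zinc-finger transcription factor of the Sp family, had 0 counts in 15 of 15 NIH/3T3 libraries and 35.8, 42.5 and 33.9 CPM in CGR8 at 0 h. With a floor of 3 counts per library, Sp5 was at least 229-fold higher in CGR8. The intracellular and secreted inhibitors followed the same order. Nkd1, which binds Dishevelled, also had 0 counts in 15 of 15 NIH/3T3 libraries and was at least 11.5-fold higher in CGR8. Notum, a secreted enzyme that strips the lipid from Wnt ligands, had 1 count in all NIH/3T3 libraries together and was at least 148-fold higher at 0 h in CGR8. Rnf43, a membrane ubiquitin ligase that removes Frizzled, was scarce in both lines, with 38 counts in the 3 CGR8 libraries and 3 in the 3 NIH/3T3 libraries. The ratio of Rnf43, 11.8, had an exact 95% counting interval from 3.73 to 59.6. Znrf3, its partner ligase, went the other way, at 37.1, 34.3 and 30.6 CPM in NIH/3T3 and 23.5, 19.9 and 22.6 CPM in CGR8 (log2 difference -0.67, SE 0.17, edgeR adjusted p = 6.5e-04).

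The 4 TCF/LEF genes divided between the lines. Tcf7 was at 66.0, 67.7 and 71.2 CPM in CGR8 at 0 h and had 13 counts in the 3 NIH/3T3 libraries of that time together, against 5437 in CGR8. The ratio of Tcf7, 388, had an exact 95% counting interval from 227 to 730. Tcf7l1, the family's main repressor in embryonic stem cells, was at 90.6, 107 and 91.4 CPM in CGR8 and 15.5, 15.6 and 14.8 CPM in NIH/3T3, 6.12-fold apart (log2 difference 2.61, SE 0.13, edgeR adjusted p = 7.8e-17). Tcf7l2 was the reverse, at 10.8, 8.47 and 10.4 CPM in CGR8 and 29.0, 24.9 and 24.6 CPM in NIH/3T3 (log2 difference -1.45, SE 0.14, edgeR adjusted p = 2.4e-10). Lef1 overlapped between the lines, at 6.39, 4.60 and 6.07 CPM in CGR8 and 5.97, 3.88 and 4.34 CPM in NIH/3T3, and was not called (log2 difference 0.23, SE 0.17, edgeR adjusted p = 0.218). Without NIH/3T3 replicate A at 0 h Lef1 was called higher in CGR8 (log2 difference 0.42, edgeR adjusted p = 0.0423).

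Levels of different genes were compared per kilobase of merged exon. That length takes in all annotated exons, whether or not they are used in these cells, so the order of genes depends on it. At 0 h in CGR8, Tcf7 (26.0 ± 1.01 CPM per kb, SD, n = 3) and Tcf7l1 (24.6 ± 2.37) overlapped at the top. Sp5 (17.8 ± 2.14), Axin2 (14.6 ± 0.343) and Notum (10.9 ± 1.58) came next, and no neighbours among these 3 overlapped. Below them stood Znrf3 (2.78 ± 0.238), Tcf7l2 (1.13 ± 0.14), Lef1 (0.647 ± 0.108), Nkd1 (0.439 ± 0.0595) and Rnf43 (0.0714 ± 0.0177), again without overlap. In NIH/3T3 at 0 h, Znrf3 (4.31 ± 0.41) and Tcf7l1 (3.89 ± 0.108) overlapped at the top. Tcf7l2 (2.98 ± 0.282), Lef1 (0.538 ± 0.125) and Axin2 (0.182 ± 0.0306) followed, each below the last without overlap. Axin2 thus stood above Znrf3, Tcf7l2 and Lef1 in the stem cells and below all 3 in the fibroblasts.

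In CGR8, 8 of the 10 transcripts fell under cycloheximide by 5 h, and at 48 h these 8 stood at different places. Axin2, Sp5, Znrf3 and Notum overlapped with their 0 h libraries or lay above them. Nkd1, Tcf7 and Tcf7l2 were below every 0 h library, and Lef1 was far above. The share of all tested genes that lie below every 0 h library is not given here. No member was called at 1 h, and 3 of 10 were lower at 2 h. At 48 h edgeR called Tcf7 lower and Lef1, Tcf7l1 and Rnf43 higher than at 0 h, whereas voom, limma's test on log counts with sample weights, called 6 of 10, adding Nkd1 and Tcf7l2 as lower. Over all tested genes of CGR8, 0.144% were called higher and 0.126% lower at 1 h, 8.97% and 11.0% at 2 h, 24.9% and 27.2% at 5 h, and 12.2% and 15.6% at 48 h. The median log2 change of the 10 genes was -0.91 at 5 h, where that of all tested genes was -0.01. The 0 of 10 at 1 h stands beside 2 of 10 at an unadjusted p under 0.05 in edgeR, 1 called by DESeq2 and 2 called by voom. Each of these comparisons uses the same 3 libraries at 0 h. The summed level of the stem cell markers moved too, from between 4340 and 4570 CPM at 0 h to between 5930 and 7020 CPM at 5 h, and its part in these changes was not tested.

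**Figure D1:**
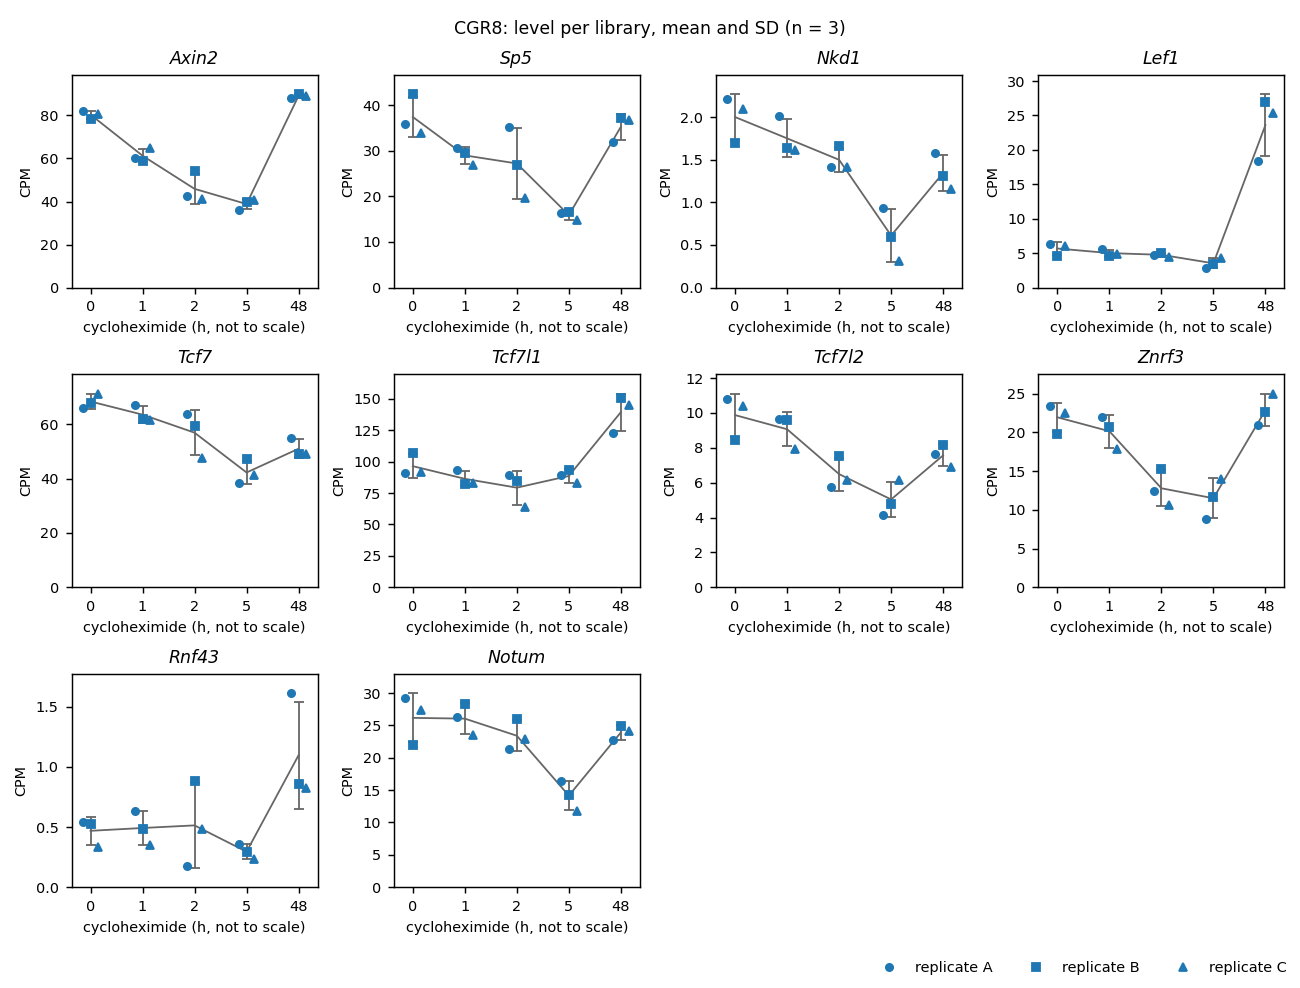
Level of each of the 10 genes in CGR8 (CPM, linear axes from 0) against hours of cycloheximide (spaced evenly, not to scale). Symbols are the 3 libraries, lines join the means and bars are the SD, n = 3; Axin2 goes from a mean of 80.4 CPM at 0 h to 38.8 at 5 h and 89.2 at 48 h, and Lef1 reaches 23.6 at 48 h.

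Axin2 and Sp5 are shown with the sequence before their transcription starts, because both are direct β-catenin/TCF targets that were lower in CGR8 at 5 h. At 48 h Axin2 lay above its 0 h libraries there and Sp5 overlapped with its own. The sequences are the 250 bases upstream of the start in the RefSeq promoter table, build GRCm38.p6, at chr11:108920099-108920348 (+ strand) for Axin2 and chr2:70474673-70474922 (+ strand) for Sp5, with a core TCF/LEF motif in capitals.
Axin2: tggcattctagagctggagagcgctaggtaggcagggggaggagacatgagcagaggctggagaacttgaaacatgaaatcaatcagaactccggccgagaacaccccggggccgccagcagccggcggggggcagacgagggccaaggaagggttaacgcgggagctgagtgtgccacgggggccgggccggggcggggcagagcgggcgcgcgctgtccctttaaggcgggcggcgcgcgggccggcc
Sp5: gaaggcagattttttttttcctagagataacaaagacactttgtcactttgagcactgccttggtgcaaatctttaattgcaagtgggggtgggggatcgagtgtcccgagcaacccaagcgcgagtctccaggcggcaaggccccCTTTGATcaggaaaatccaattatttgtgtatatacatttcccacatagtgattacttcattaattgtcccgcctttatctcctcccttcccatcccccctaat
The motif was searched as CTTTGAT or CTTTGAA on both strands of the window from 250 bases before to 50 after the start. Of 32851 windows in the table, 2842 (8.65%) hold it. The 8 members with an entry have 14 windows, and only the Sp5 window holds the motif, its first base 104 bases before the start. A motif outside these windows was not looked for.

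Axin2 had its lowest levels at 5 h and was among the 3 genes already lower at 2 h. Its 3 CGR8 libraries were at 60.3, 58.8 and 64.8 CPM at 1 h, all below the 0 h range, but the change was not called by edgeR (log2 -0.39, SE 0.11, adjusted p = 0.192), whereas DESeq2 called it (log2 -0.40, adjusted p = 0.0247). At 2 h Axin2 was at 42.6, 54.0 and 41.1 CPM (log2 -0.81, SE 0.11, edgeR adjusted p = 1.7e-04). At 5 h it was at 36.0, 39.7 and 40.9 CPM, a mean of 48.3% of the 0 h mean (log2 -1.05, SE 0.11, edgeR adjusted p = 2.2e-06). Every 5 h library lay below every library of 0 and 1 h. At 48 h Axin2 was at 88.3, 90.0 and 89.2 CPM, above each of the 0 h libraries, yet the change from 0 h was not called (log2 0.15, SE 0.10, edgeR adjusted p = 0.313).

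Sp5 had a wider spread at 2 h than at other times. It was at 30.6, 29.5 and 26.9 CPM at 1 h and at 35.1, 26.9 and 19.6 CPM at 2 h. The 2 h change of Sp5 was not called (log2 -0.46, SE 0.16, edgeR adjusted p = 0.0547), and without the high 2 h replicate A it was (log2 -0.69, edgeR adjusted p = 0.00418), as it was by DESeq2 with all libraries (adjusted p = 0.0403). At 5 h Sp5 was at 16.3, 16.6 and 14.7 CPM, below every earlier library (log2 -1.23, SE 0.17, edgeR adjusted p = 2.3e-05). At 48 h Sp5 overlapped with 0 h at 31.9, 37.1 and 36.7 CPM (log2 -0.09).

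Nkd1 and Notum, the Dishevelled-binding and the secreted inhibitor, were not called at 2 h (log2 -0.42 for Nkd1 and -0.16 for Notum) and were lower at 5 h. Nkd1 went from 2.21, 1.70 and 2.09 CPM at 0 h to 0.932, 0.589 and 0.311 CPM at 5 h (log2 -1.73, SE 0.28, edgeR adjusted p = 1.3e-04). At 48 h Nkd1 was at 1.58, 1.31 and 1.15 CPM, below each 0 h library, which edgeR did not call (log2 -0.57, SE 0.25, adjusted p = 0.0996) and voom did (log2 -0.71, adjusted p = 0.00349). The Nkd1 change at 5 h was the largest fall among the 10 genes and rests on 8 to 69 counts per CGR8 library. Notum went from 29.2, 21.9 and 27.4 CPM at 0 h to 16.4, 14.3 and 11.8 CPM at 5 h, without overlap (log2 -0.89, SE 0.14, edgeR adjusted p = 8.8e-05). Notum was at 22.7, 24.8 and 24.2 CPM at 48 h, within the 0 h range. Antisense genes on the other strand overlap 29.4% and 8.72% of the merged exons of Notum, and the use of strand in the counting is not given in the sources used here.

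The ubiquitin ligases that clear Frizzled behaved differently from each other at 48 h. Znrf3 went from 23.5, 19.9 and 22.6 CPM at 0 h to 12.5, 15.3 and 10.6 CPM at 2 h (log2 -0.78, SE 0.16, edgeR adjusted p = 0.00459). It stayed there at 5 h, at 8.83, 11.7 and 14.0 CPM (log2 -0.93, SE 0.16, edgeR adjusted p = 2.3e-04). At 48 h Znrf3 was back at 20.9, 22.7 and 25.0 CPM (log2 0.06). Rnf43, with 4 to 44 counts per CGR8 library, was at 0.546, 0.525 and 0.335 CPM at 0 h and 1.61, 0.858 and 0.823 CPM at 48 h. Its 48 h libraries did not overlap with those at 0 h (log2 1.21, SE 0.42, edgeR adjusted p = 0.0393). The Rnf43 call was lost without any 1 of the 3 replicates at 0 h (edgeR adjusted p between 0.0680 for replicate B and 0.124 for replicate C) and without 48 h replicate A (log2 0.82, edgeR adjusted p = 0.206), as well as with scaling by library size alone (edgeR adjusted p = 0.0520).

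Among the TCF/LEF genes, Tcf7 and Tcf7l2 fell, Tcf7l1 was held and then rose, and Lef1 fell and then overshot. Tcf7 went from 66.0, 67.7 and 71.2 CPM at 0 h to 38.4, 47.0 and 41.2 CPM at 5 h (log2 -0.69, SE 0.12, edgeR adjusted p = 1.4e-04). At 48 h it was at 55.1, 48.9 and 48.9 CPM, still below each 0 h library (log2 -0.42, SE 0.11, edgeR adjusted p = 0.0114). The 48 h call of Tcf7 was lost without 48 h replicate B (edgeR adjusted p = 0.0515) or C (edgeR adjusted p = 0.0538). Tcf7l2 fell by 2 h, to 5.76, 7.56 and 6.16 CPM (log2 -0.60, SE 0.16, edgeR adjusted p = 0.0170), and was at 4.17, 4.81 and 6.14 CPM at 5 h (log2 -0.97, SE 0.16, edgeR adjusted p = 1.7e-04). Its 2 h call was lost without 0 h replicate A (edgeR adjusted p = 0.0766), 0 h replicate C (edgeR adjusted p = 0.0596) or 2 h replicate C (edgeR adjusted p = 0.0797), and when only the 0 and 2 h libraries were fitted (edgeR adjusted p = 0.0652). At 48 h Tcf7l2 was at 7.63, 8.17 and 6.91 CPM, under the 0 h range, which edgeR did not call (log2 -0.38, SE 0.16, adjusted p = 0.0826) and voom did (log2 -0.48, adjusted p = 0.00279).

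Tcf7l1 overlapped with 0 h at 5 h, at 89.6, 93.5 and 82.7 CPM (log2 -0.12, SE 0.13, edgeR adjusted p = 0.440). At 48 h Tcf7l1 was at 123, 150 and 145 CPM, above each earlier library (log2 0.53, SE 0.13, edgeR adjusted p = 0.00507). Lef1, itself a Wnt target as well as a TCF/LEF factor, was at 2.84, 3.48 and 4.28 CPM at 5 h, below the 0 h range (log2 -0.68, SE 0.19, edgeR adjusted p = 0.00609). At 48 h Lef1 reached 18.5, 27 and 25.3 CPM, a mean of 415% of the 0 h mean (log2 2.05, SE 0.17, edgeR adjusted p = 7.7e-07). No CGR8 library of another time had more than 6.39 CPM of Lef1. Exons of antisense genes overlap 13.7% of the merged exons of Lef1, 4.56% of those of Tcf7l1 and 3.8% of those of Axin2.

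Between 5 and 48 h, 9 of the 10 genes were called higher in CGR8 and 0 lower, against 28.9% of all tested genes called higher and 28.6% lower. These 9 include Tcf7l1 and Rnf43, which had not been called lower at 5 h. The log2 rise was 1.20 for Axin2 (SE 0.11, edgeR adjusted p = 3.3e-07), 1.15 for Sp5, 1.16 for Nkd1, 0.76 for Notum, 0.99 for Znrf3, 1.90 for Rnf43, 2.73 for Lef1, 0.65 for Tcf7l1 and 0.58 for Tcf7l2. Tcf7 was the exception (log2 0.27, SE 0.12, edgeR adjusted p = 0.0535), and it was called without 5 h replicate B (log2 0.36, edgeR adjusted p = 0.0287). This comparison shares the 5 h libraries with the one above, so a fall at 5 h and a rise from 5 h are not separate pieces of evidence.

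In NIH/3T3 only Axin2, Lef1, Tcf7l1, Tcf7l2 and Znrf3 had enough counts to be tested, and they did not move together. None of the 5 was called at 1 h. At 2 h Axin2 and Tcf7l1 were called lower, at 5 h Tcf7l1 and Znrf3 were lower and Lef1 higher, and at 48 h Lef1, Tcf7l1 and Tcf7l2 were higher. Over all tested genes of NIH/3T3, 0.653% were called higher and 0.0789% lower at 1 h, 16.1% and 18.9% at 2 h, 24.0% and 27.1% at 5 h, and 26.7% and 25.6% at 48 h. The 0 of 5 at 1 h stands beside 1 of 5 at an unadjusted p under 0.05 in edgeR and 0 called by DESeq2 or by voom. The summed level of the fibroblast markers was between 6550 and 7130 CPM at 0 h, 4240 and 4940 CPM at 5 h, and 9640 and 9990 CPM at 48 h, and its part in these changes was not tested.

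**Figure D2:**
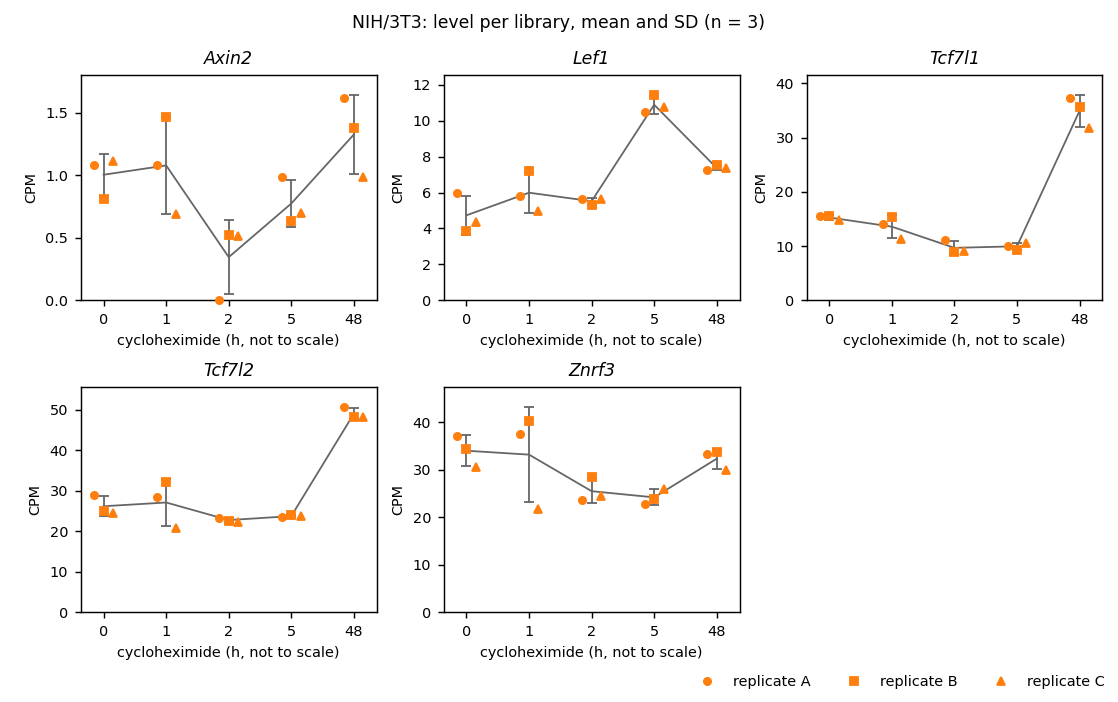
Level of the 5 genes tested in NIH/3T3 (CPM, linear axes from 0) against hours of cycloheximide (spaced evenly, not to scale). Symbols are the 3 libraries, lines join the means and bars are the SD, n = 3; the Lef1 libraries are highest at 5 h, at 10.5 CPM or more, and those of Tcf7l1 and Tcf7l2 are highest at 48 h.

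Lef1 rose in the fibroblasts, and most at 5 h. It was at 10.5, 11.4 and 10.8 CPM at 5 h, above all libraries of 0, 1 and 2 h (log2 1.21, SE 0.15, edgeR adjusted p = 8.4e-06). At 48 h Lef1 was at 7.25, 7.51 and 7.34 CPM, between the 0 h and the 5 h libraries (log2 0.65 against 0 h, SE 0.15, edgeR adjusted p = 0.00210). The fall of Lef1 from 5 to 48 h was called as well (log2 -0.56, SE 0.14, edgeR adjusted p = 0.00266).

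Tcf7l1 fell and then rose above its starting level. It was at 11.1, 8.84 and 9.03 CPM at 2 h (log2 -0.66, SE 0.13, edgeR adjusted p = 0.00107) and 10.1, 9.22 and 10.6 CPM at 5 h (log2 -0.62, SE 0.12, edgeR adjusted p = 6.2e-04). At 48 h Tcf7l1 reached 37.4, 35.7 and 31.8 CPM, above every earlier library (log2 1.20, SE 0.12, edgeR adjusted p = 6.8e-07). Tcf7l2 was not called by edgeR through 5 h, where it was at 23.6, 24.0 and 23.7 CPM (log2 -0.14, SE 0.12, adjusted p = 0.363). The voom test called Tcf7l2 lower at 2 h (log2 -0.28, adjusted p = 0.00760) and at 5 h (log2 -0.20, adjusted p = 0.0187), which makes 4 of 5 members called by voom at each of these times. At 48 h Tcf7l2 was at 50.6, 48.2 and 48.2 CPM, above every earlier library (log2 0.91, SE 0.12, edgeR adjusted p = 1.5e-05).

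Znrf3 was at 23.6, 28.4 and 24.5 CPM at 2 h, below the 0 h libraries, which edgeR did not call (log2 -0.41, SE 0.17, adjusted p = 0.0629) and DESeq2 did (adjusted p = 0.0480). It was at 22.8, 23.8 and 26.0 CPM at 5 h, below the 0 h libraries (log2 -0.49, SE 0.17, edgeR adjusted p = 0.0209). The 5 h call of Znrf3 was lost without 0 h replicate A (edgeR adjusted p = 0.0785), 5 h replicate A (edgeR adjusted p = 0.0724) or 5 h replicate B (edgeR adjusted p = 0.0601). At 48 h Znrf3 was back at 33.4, 33.7 and 29.9 CPM (log2 -0.07 against 0 h). Axin2 had 0 to 43 counts per NIH/3T3 library. At 2 h replicate A had 0 counts of Axin2, where 3 counts would be 0.164 CPM, and the other libraries had 0.520 and 0.514 CPM. The fitted 2 h change of Axin2 was called (log2 -1.43, SE 0.48, edgeR adjusted p = 0.0290) and was lost without 0 h replicate A (edgeR adjusted p = 0.0734) or C (edgeR adjusted p = 0.0922), and when only the 0 and 2 h libraries were fitted (edgeR adjusted p = 0.0699). At 48 h Axin2 was at 1.62, 1.38 and 0.989 CPM and was not called against 0 h (log2 0.42, SE 0.38, edgeR adjusted p = 0.373). Tcf7 was below the count filter, with 13, 8, 7, 1 and 2 counts over the 3 libraries at 0, 1, 2, 5 and 48 h. The ratio of Tcf7 at 0 h to 5 h was 12.2, with an exact 95% counting interval from 1.83 to 517. At 0 h to 48 h it was 6.12, with an interval from 1.39 to 55.9. Both intervals cover counting error only and leave out the spread between libraries.

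From 5 to 48 h, 3 of the 5 genes were called higher in NIH/3T3 and 1 lower, against 34.1% and 31.4% of all tested genes. Tcf7l1 (log2 1.81, edgeR adjusted p = 6.2e-09) and Tcf7l2 (log2 1.05, edgeR adjusted p = 1.7e-06) rose most, and Znrf3 rose by less (log2 0.42, SE 0.17, edgeR adjusted p = 0.0348). The Znrf3 call was lost without replicate A or B of either time. Axin2 was not called by edgeR (log2 0.79, SE 0.40, adjusted p = 0.0918) but was by voom (log2 0.80, adjusted p = 0.00855). In edgeR it was called without the count filter (adjusted p = 0.0261) and with the compared groups fitted alone (log2 0.76, adjusted p = 0.00976).

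The lines were compared directly by the difference of their changes from 0 h, CGR8 minus NIH/3T3, for the 5 genes tested in both. No difference was called at 1 or 2 h. At 5 h 1 of 5 was called higher and 2 lower, against 11.0% and 6.91% of genes tested in both lines, and at 48 h 1 higher and 2 lower, against 13.2% and 15.5%. At 1 h 0.0243% of genes were called higher and 0.194% lower, and at 2 h 1.16% and 1.61%. At each of 1 and 2 h, 1 of the 5 members had an unadjusted p under 0.05 in edgeR, and DESeq2 and voom called 0. Lef1 changed in opposite directions at 5 h, lower in CGR8 and higher in NIH/3T3 (difference of log2 changes -1.81, SE 0.24, edgeR adjusted p = 8.6e-06). At 48 h the order of Lef1 was turned, with the larger rise in CGR8 (difference 1.38, SE 0.23, edgeR adjusted p = 7.4e-05). Tcf7l2 was more negative in CGR8 at both times, by -0.74 at 5 h (SE 0.20, edgeR adjusted p = 0.0149) and -1.31 at 48 h (SE 0.20, edgeR adjusted p = 1.8e-05).

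The difference in Tcf7l1 was 0.58 at 5 h (SE 0.18, edgeR adjusted p = 0.0293) and -0.68 at 48 h (SE 0.17, edgeR adjusted p = 0.00485). The 5 h call of Tcf7l1 depended on the scaling: with library size alone the difference was 0.39 (edgeR adjusted p = 0.149), where the median over all genes moved from 0.13 to -0.06, and DESeq2 did not call it (0.50, adjusted p = 0.0539). The call was not made either with median-ratio factors (edgeR adjusted p = 0.0777), without the count filter (0.0712) or at a mean of 5 CPM or more (0.0519). It was also lost without CGR8 5 h replicate A (0.39, edgeR adjusted p = 0.230) or B (0.37, edgeR adjusted p = 0.237), and by smaller margins without 6 other libraries (edgeR adjusted p between 0.0502 and 0.0907). The 5 h call of Tcf7l2 was lost without CGR8 0 h replicate A (-0.67, edgeR adjusted p = 0.0502). For Axin2 the difference at 5 h was -0.59 (SE 0.37, edgeR adjusted p = 0.328) and for Znrf3 it was -0.35 (edgeR adjusted p = 0.369), neither called.

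**Figure D3:**
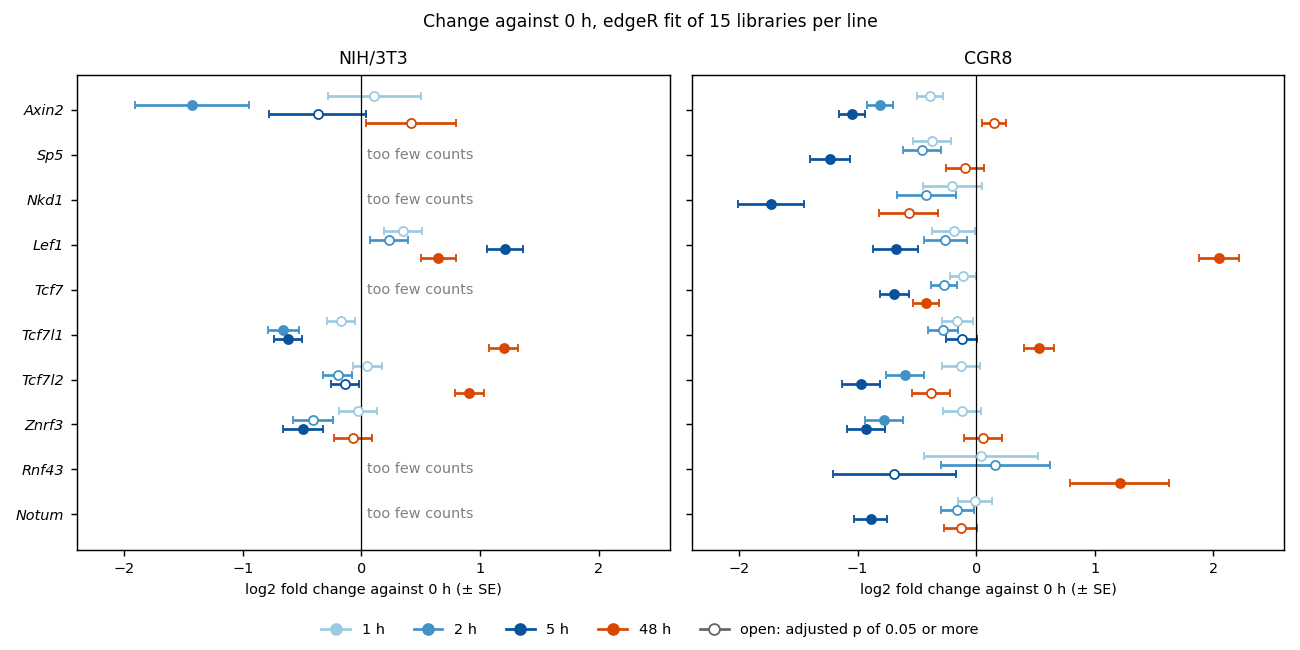
Log2 change from 0 h (points, with bars of 1 SE from edgeR) of each gene in each line, coloured by hours of cycloheximide; filled points are called and open points are not. In CGR8 at 5 h the points of 8 of 10 genes were called lower, from -0.68 for Lef1 to -1.73 for Nkd1, and the Lef1 points of the lines lie on opposite sides of 0 at 5 h.

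The changes of the 4 TCF/LEF genes altered their mixture, given here as shares of their summed CPM per kilobase, without a test. In CGR8 at 0 h Tcf7 held 49.7% ± 2.33 (SD, n = 3) and Tcf7l1 46.8% ± 2.83, overlapping. At 5 h Tcf7 held 40.5% ± 1.99 and Tcf7l1 57.0% ± 2.31, and at 48 h they held 33.3% ± 4.07 and 60.6% ± 3.47. Lef1 held 1.24% ± 0.254 of the sum in CGR8 at 0 h and 4.57% ± 0.669 at 48 h. The sum itself was 52.4 ± 2.2 CPM per kb in CGR8 at 0 h, 39.6 ± 2.65 at 5 h and 58.5 ± 2.97 at 48 h. Per kilobase of merged exon, a mixture shared about equally by Tcf7 and Tcf7l1 thus became one with more Tcf7l1.

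The fibroblast mixture was of Tcf7l1 and Tcf7l2. In NIH/3T3 Tcf7l1 held 52.1% ± 2.42 of the sum at 0 h (SD, n = 3), 39.1% ± 1.98 at 5 h and 58.0% ± 1.72 at 48 h. Tcf7l2 held 39.8% ± 1.5 at 0 h, 41.7% at 5 h and 36.4% ± 1.4 at 48 h. Without division by length the order at 0 h was the reverse, with a mean of 26.2 CPM for Tcf7l2 and 15.3 CPM for Tcf7l1. Lef1 held 7.16% ± 1.27 at 0 h, 19.1% ± 1.1 at 5 h and 5.48% ± 0.339 at 48 h. The sum went from 7.48 ± 0.431 CPM per kb at 0 h to 6.49 ± 0.13 at 5 h and 15.3 ± 0.851 at 48 h. At 5 h, then, the share of Lef1 was higher and that of Tcf7l1 lower in the fibroblasts, while in the stem cells the share of Tcf7l1 was higher.

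**Figure D4:**
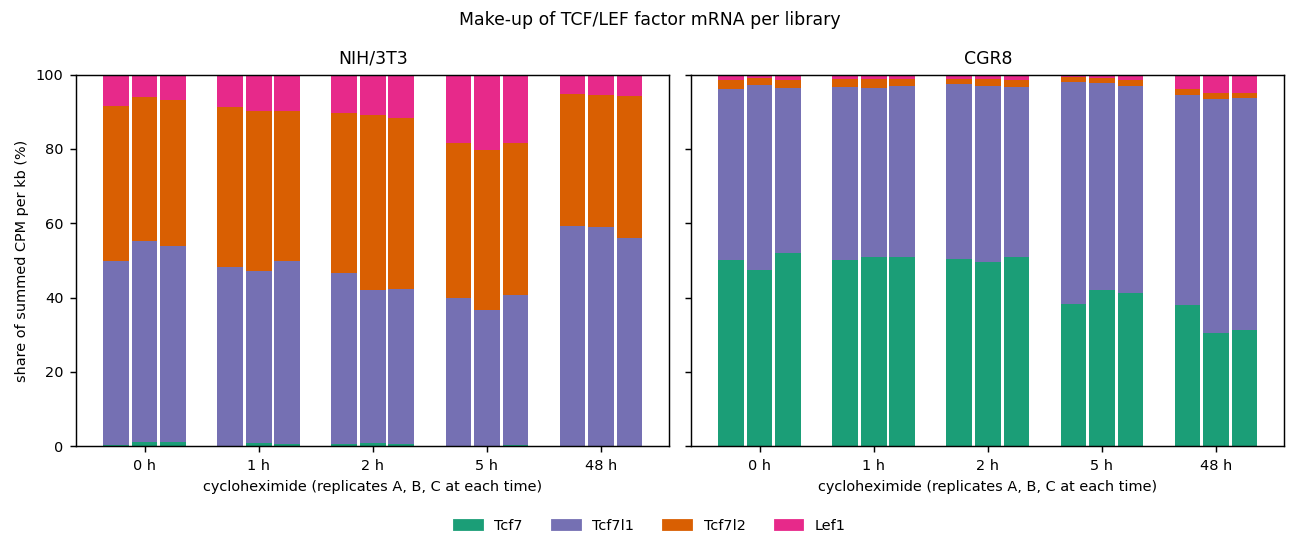
Share of each TCF/LEF gene in their summed level per kilobase of exon (percent), 1 stacked bar for each of the 3 libraries at each time of cycloheximide in each line. Tcf7 takes a mean of 49.7% in CGR8 at 0 h and 33.3% at 48 h, and Lef1 takes a mean of 19.1% in NIH/3T3 at 5 h.

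The rest of the pathway was read from 6 lists of ligands, receptors, destruction complex, inhibitors, cofactors and other reported targets. In CGR8 at 5 h, 48 of 86 tested genes of these lists (55.8%) were called lower and 7 (8.14%) higher, with a median log2 change of -0.50, where 27.2% of all tested genes were lower and 24.9% higher. At 48 h 21 (24.4%) were lower and 6 (6.98%) higher, beside 15.6% and 12.2% of all tested genes. In NIH/3T3 30 of 64 (46.9%) were lower and 10 (15.6%) higher at 5 h, beside 27.1% and 24.0% of all tested genes. At 48 h 13 (20.3%) were lower and 29 (45.3%) higher, beside 25.6% and 26.7%. The lower calls at 5 h and the shift by 48 h were seen outside the targets and feedback genes too, and no test set the lists against other genes.

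In CGR8 at 5 h the receptors and R-spondin axis had 13 of 18 tested genes lower and 0 higher. The co-receptor Lrp6 went from a mean of 62.4 to 31.3 CPM (log2 -0.99) and Lrp5 from 45.3 to 23.9 CPM (log2 -0.92). Of the destruction complex and Dishevelled genes 10 of 18 were lower and 0 higher, among them Apc (log2 -1.03, SE 0.31) and Dvl3 (log2 -1.08, SE 0.15). Apc was widely spread, at 28.6, 65.4 and 87.1 CPM in replicates A, B and C at 5 h and 138, 94.7 and 138 CPM at 0 h. Lrp6 was lowest in the same 5 h replicate A, at 19.4 CPM against 35.7 and 39.0 CPM. Among the cofactors 9 of 15 were lower and 2 higher, with the corepressor Tle3 going from 114 to 47.3 CPM (log2 -1.27) and the coactivator Bcl9 from 33.7 to 14.9 CPM (log2 -1.18). Of the other inhibitors 7 of 16 were lower and 1 higher, and of the ligands and their secretion genes 2 of 8 were lower and 1, Wls, higher (log2 0.80). Inhibitor Dact2 went from 63.5 to 24.5 CPM at 5 h and was still at 21.8 CPM at 48 h.

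At 48 h in CGR8, 7 of 12 other reported targets were called lower and 2 higher. The homeobox gene Cdx1 was at 9.91 CPM at 48 h against 44.4 at 0 h (log2 -2.16, SE 0.19, edgeR adjusted p = 9.2e-07), and Cdx2 was at 1.39 against 5.49 CPM (log2 -1.98, SE 0.20, edgeR adjusted p = 5.0e-06). Among the members, edgeR called only Tcf7 lower at that time, at a mean of 74.6% of its 0 h mean. That call was lost without 48 h replicate B (edgeR adjusted p = 0.0515) or C (edgeR adjusted p = 0.0538). Nkd1 and Tcf7l2, at means of 67.2% and 76.6% of the 0 h mean, were called lower by voom and not by edgeR. Axin2, Sp5, Znrf3 and Notum were not called by edgeR. The difference between the lists was not tested.

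**Figure D5:**
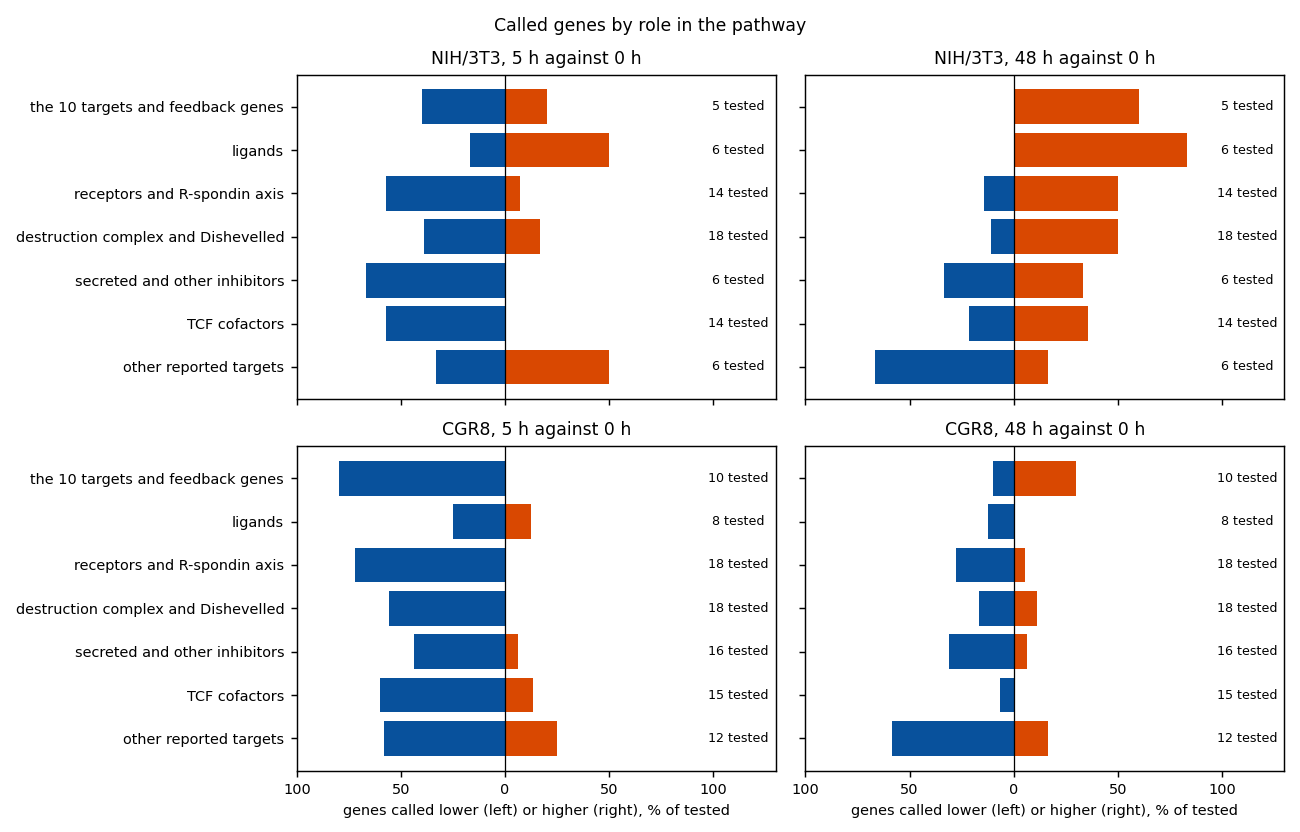
Share of tested genes called lower (left bars) or higher (right bars) by role in the pathway, at 5 and 48 h against 0 h in each line, in percent of the tested genes whose number stands at the right. In CGR8 at 5 h the left bar reaches 8 of 10 for the targets and feedback genes and 13 of 18 for the receptors.

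Genes whose log2 CPM followed Axin2 most closely were sought with predicted genes, pseudogenes and clone names passed over. The ranks of members count all tested genes. Over the 15 CGR8 libraries, the closest were Dab2ip (Pearson r = 0.982), Tbck (0.979) and Tgfbrap1 (0.975). Among the members, Znrf3 came nearest (r = 0.925), at rank 223 among all tested genes, followed by Sp5 (0.823), Lef1 (0.757) and Tcf7l2 (0.746). Over the 15 NIH/3T3 libraries, where Axin2 has few counts, they were Amt (r = 0.947), Mapk12 (0.942) and Myo1a (0.919). These genes are scarce there too, each with a mean of 1.46 CPM or less at every time. At 2 h, where replicate A had 0 counts of Axin2, they varied widely between libraries. Means there were 0.409 ± 0.259 CPM (SD, n = 3) for Amt, 0.373 ± 0.326 for Mapk12 and 0.236 ± 0.217 for Myo1a. The weight of that library in these r values was not tested. Among the members tested in NIH/3T3, Znrf3 again came nearest (r = 0.556), at rank 1541. The libraries of each line share 5 times of treatment, so these values describe a time course and are not independent points.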

How the data were processed

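The deposited file is a matrix of whole-number counts per gene for 30 libraries, made by the authors from stranded mRNA libraries per the labels' protocols. The submitters' processing notes name STAR, DESeq2 and GRCm39, without their roles. The counting tool, its use of strand and the annotation release are not given in the sources used here. Symbols came from GENCODE M21 (GRCm38) by identifier without version, 51880 of 57186 (90.7%) matching, and this annotation also gave exon lengths and overlaps.

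Each line was fitted alone (13941 genes in NIH/3T3, 15933 in CGR8) with edgeR 4.0.16 in R 4.3.3: default low-count filter, trimmed-mean factors, quasi-likelihood test, Benjamini-Hochberg adjustment, threshold 0.05. Differences between lines came from 1 fit of 30 libraries (17549 genes), counted over the 12369 genes tested in both lines (for 0 h, a restriction chosen after seeing the data). Alternatives were other scalings and filters, DESeq2 1.42.0, limma 3.58.1 voom, a replicate block and leaving out libraries. SE is the log2 change over the square root of F. Code was tested on simulated data. Depth was 18.2 to 30.5 M counts per library. Floors are 3 counts per library, and intervals cover counting error only. No pair of replicates agreed within sampling noise, and the disagreement was uneven. Chi-square per degree of freedom ran from 1.75 (CGR8 1 h, B and C) to 89.1 (NIH/3T3 1 h, B and C). In NIH/3T3 at 1 h it was 76.2 for A and C but 4.41 for A and B, so replicate C stood apart there.

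The members and lists were chosen with earlier results of these data known. All members are named. From each other list, up to 2 called genes could be named per line at 5 and 48 h, those changed most whose higher group averaged 5 CPM or more. The 3 genes per line most like Axin2 by Pearson r were named too, with predicted genes, pseudogenes and clone names passed over. Promoters came from RefSeq for 8 of 10 members.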

Additional observations from a re-analysis of the deposited data

Results flagged for a closer look

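The change from 0 h differed between the lines by the interaction test of edgeR for 3 members at each of 2 times. As CGR8 minus NIH/3T3, the difference of log2 changes at 5 h was -1.81 for Lef1, 0.58 for Tcf7l1 and -0.74 for Tcf7l2. At 48 h it was 1.38 for Lef1, -0.68 for Tcf7l1 and -1.31 for Tcf7l2, so that Lef1 and Tcf7l1 changed sign between these times. Both times are set against the same 0 h libraries, and the change of sign itself was not tested. The 5 h call of Tcf7l1 was lost under several alternatives, among them scaling by library size alone (edgeR adjusted p = 0.149) and DESeq2 (adjusted p = 0.0539). That of Tcf7l2 was lost without CGR8 0 h replicate A (edgeR adjusted p = 0.0502).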

How the results depend on the processing

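No called change of a member reversed under any alternative. The number of members called in NIH/3T3 at 2 h, 2 as reported, was 4 with voom and 1 with a mean of at least 5 CPM, and between 1 and 2 when libraries were left out in turn (1 without 0 h replicate A or C). In CGR8 at 1 h, 0 as reported, it was 1 with DESeq2 and 2 with voom. In CGR8 at 2 h, 3 as reported, it was 5 with voom and between 2 and 5 with libraries left out (5 without 2 h replicate A). For the line difference at 5 h, 3 as reported, it was between 1 and 3 with libraries left out (1 without CGR8 0 h replicate A). With a replicate block, 4 members were called in CGR8 at 2 h, Sp5 joining (log2 -0.47, adjusted p = 0.0446), and 3 in NIH/3T3 at 2 h, Znrf3 joining (log2 -0.41, adjusted p = 0.0473), and the block changed no other count of called members. Whether libraries with the same replicate letter belong together is settled neither by the labels nor by these values. Of the 12 pairs with the 0 h libraries, 2 in NIH/3T3 and 5 in CGR8 had correlated deviations over 0.1. In each line 6 of 12 libraries correlated best with their own letter. Depth limits Rnf43 in both lines and Axin2 and Tcf7 in NIH/3T3, where few counts stand behind each value.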
